A study of Mus musculus with 5 samples.

Results

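The Wnt pathway genes described here are the 19 Wnt ligands, the 10 Frizzled receptors, the co-receptors Lrp5 and Lrp6 with the receptors Ror1 and Ror2, 10 secreted antagonists (4 Sfrp genes, 4 Dkk genes, Frzb and Wif1) and the feedback gene Axin2. They were taken by gene symbol and gave 44 genes of the 19505 with a symbol in the table. Each of the 44 was represented by 1 probe set. The samples were mature adipocytes made from 3T3-L1, a clonal mouse preadipocyte line that the labels list at the mature stage. Differentiation used an adipogenic mixture for 4 days, with IBMX at 0.5 mM, dexamethasone at 1 µM and insulin at 5 µg/mL. Medium with only insulin followed for 2 days, then 1 day without it. All cells then spent 72 h in RPMI-1640 with 10% serum. The 3 exposed samples shared that medium with human MM.1S multiple myeloma cells behind a membrane with 0.4 µm pores, and the 2 control samples had the medium alone. RNA was read on mouse Clariom S arrays, 1 per sample. No label says that the replicates were separate cultures, so p-values measure the spread between these arrays, which may be technical. The labelled cell type had its markers: Fabp4 and Adipoq, defining genes of fat cells, had mean log2 signals of 12.4 and 11.6. The median over 10 adipocyte markers was 9.97, with Slc2a4 lowest at 5.81, and 0 of 10 passed the test between groups. Preadipocyte and fibroblast markers were also present, with a median of 9.34 over 10 genes and Dlk1, a preadipocyte gene, at 10.4. Signals of different genes come from different probes, so these levels do not show how complete differentiation was.

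Wnt proteins are lipid-modified secreted signals that bind a Frizzled receptor. With the co-receptors Lrp5 or Lrp6 this stabilises beta-catenin, which joins TCF/LEF factors on target genes such as Axin2, whereas Ror receptors carry Wnt5a signals that do not use beta-catenin. Sfrp proteins, Frzb and Wif1 bind Wnt ligands outside the cell, and Dkk1 blocks the Lrp co-receptors. In the fat lineage, Wnt10b and beta-catenin hold back differentiation by keeping Pparg and Cebpa low, and Sfrp5 is made by fat cells as they mature. DKK1 is known in myeloma as a tumour product that inhibits bone-forming cells, but the arrays were designed for mouse transcripts and measured the adipocyte side.

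No Wnt pathway gene passed the test between exposed and control arrays. At a limma adjusted p under 0.05, 0 of 44 genes were called, where the whole table of 22206 probe sets gave 0 calls (0%), and the smallest adjusted p of any member was 0.93. At an unadjusted p under 0.05 there were 5 of 44 (11.4%), against 776 (3.49%) of all probe sets. One was higher on exposed arrays, Sfrp5, against 1.82% of all probe sets, and 4 were lower, Fzd1, Sfrp2, Frzb and Fzd9, against 1.68%. All exposed arrays read above both control arrays for 6 members (Wnt1, Wnt5a, Wnt8b, Wnt9a, Sfrp4 and Sfrp5), where 8.50% of all probe sets did so. They read below both for 5 (Fzd1, Fzd7, Fzd9, Frzb and Sfrp2), where 8.84% of all probe sets did so. The mean was higher on exposed arrays for 24 of 44 members, against 49.9% of all probe sets. That count joined 22 of 33 members below the median signal of the table and 2 of 11 at or above it. Over all probe sets these shares were 55.9% and 43.9%. Fzd1, Fzd7 and Sfrp2 lay at or above that median, where 11.4% of all probe sets read below both control arrays on every exposed array. For 40 of 44 genes (90.9%) the 95% interval of the difference excluded a 2-fold change in either direction, against 92.9% of all probe sets. The other 4 members were Fzd1, Sfrp5, Wnt9a and Wnt5b. In bulk RNA, fewer cells that express a gene and less RNA per cell cannot be told apart.

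**Figure D1:**
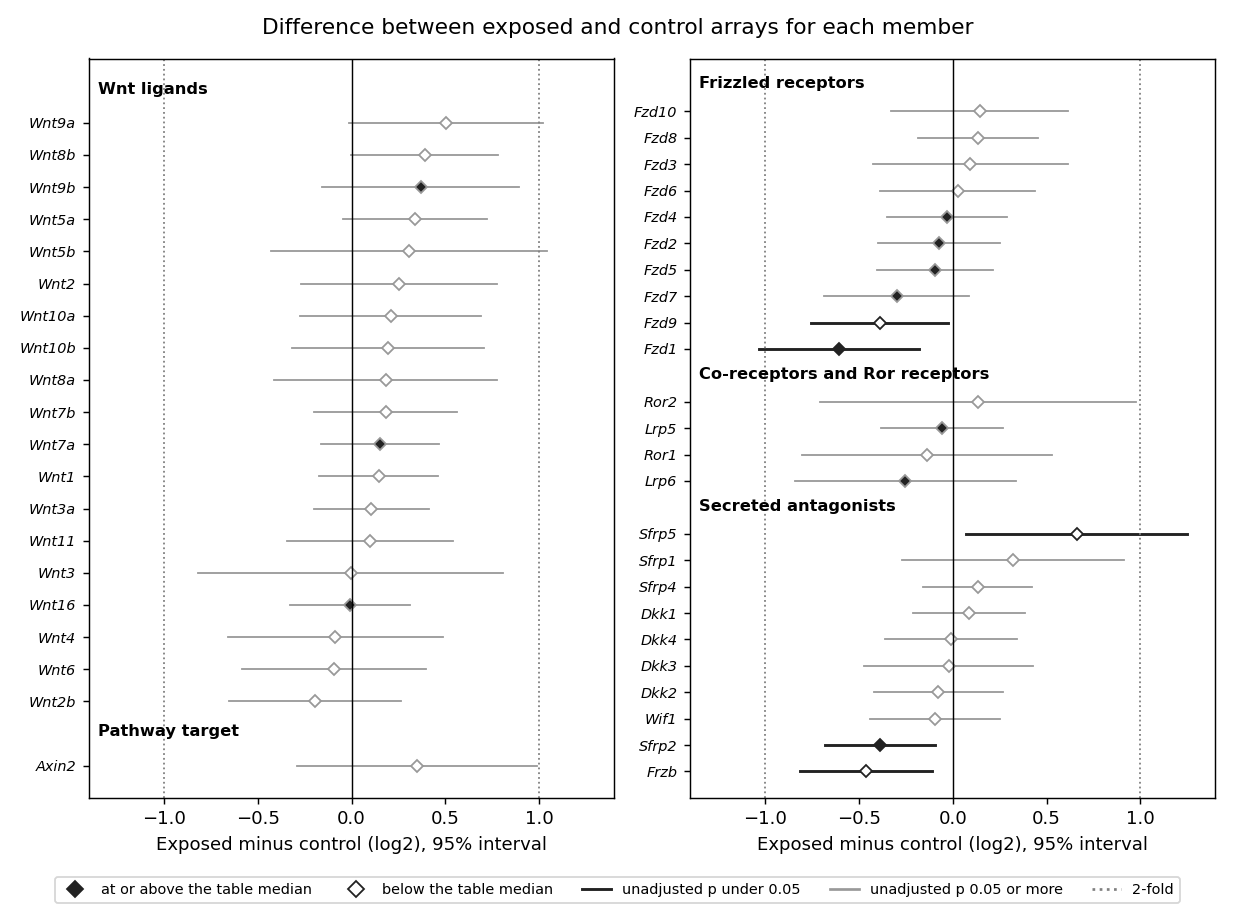
Exposed minus control difference in log2 signal for each of the 44 genes by role (diamonds, with 95% intervals from limma), with filled diamonds for a mean signal at or above the median of the table and black lines for an unadjusted p under 0.05. Most ligands lie to the right of 0, Fzd1, Fzd9, Sfrp2 and Frzb lie to the left, and Sfrp5 has the largest difference, 0.66.

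Signal strength differed between the roles and sets how much each value can show. A probe set was called dim when its mean over the 5 arrays lay below the median of the table, 4.81, where RMA summaries compress differences. By this rule 33 of the 44 members were dim, including 16 of 19 ligands and 9 of 10 antagonists, whereas 5 of 10 Frizzled genes, Lrp5, Lrp6 and Sfrp2 were at or above it. The table held no detection calls, so a dim value does not say whether the gene was expressed. The median half-width of the 95% interval was 0.42 for the members and 0.41 for all probe sets. On 10 of the 44 members, 2 or more arrays carried exactly the same deposited value, as did 27.2% of all probe sets.

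**Figure D2:**
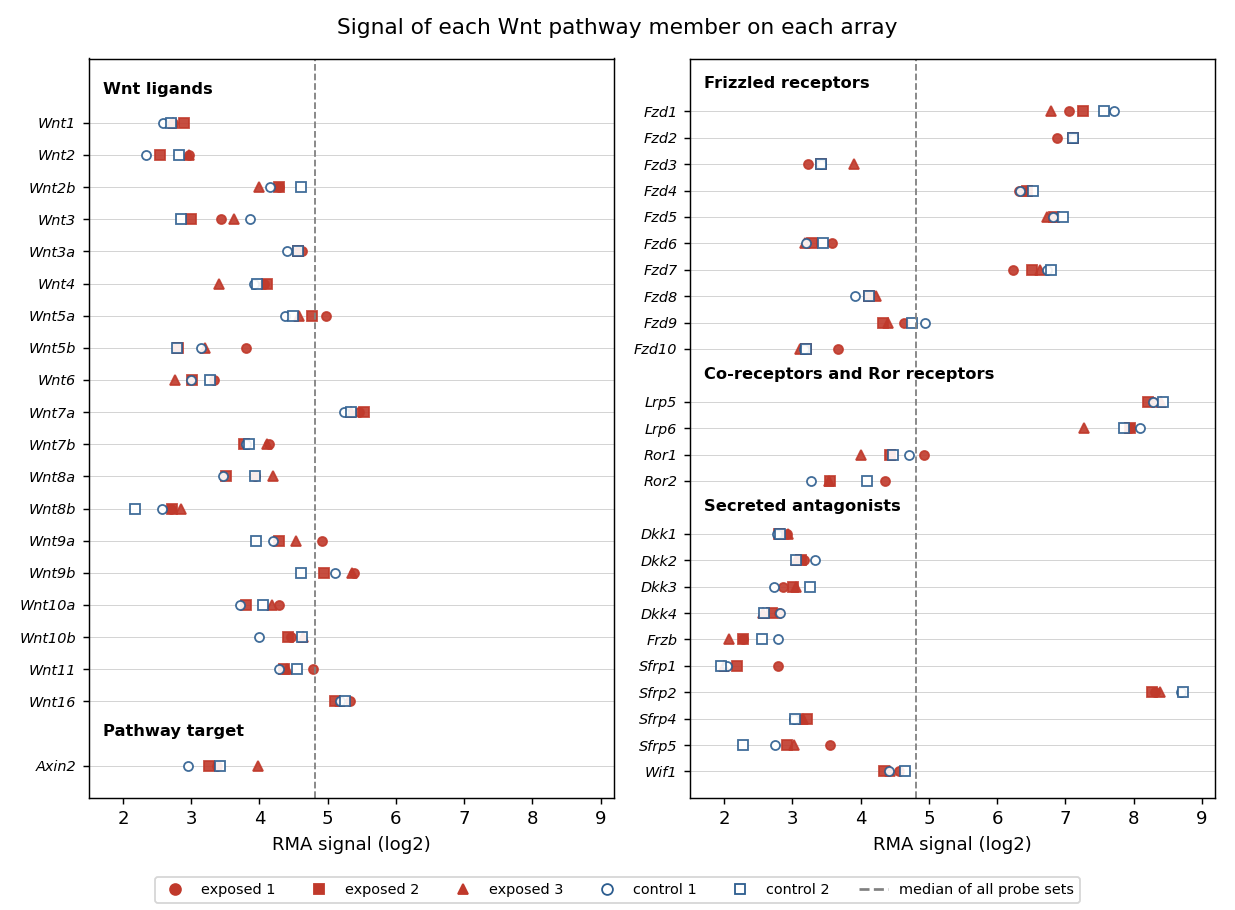
RMA signal (log2) of the 44 genes on the 3 exposed (filled red) and 2 control (open blue) arrays, with the median of all probe sets, 4.81, as a dashed line; signals of different genes come from different probes and are not compared. Groups are apart for Fzd1, Frzb and Sfrp2, while for most ligands the symbols of both groups mix.

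The proximal promoters of 4 members are shown because the report turns on them: Fzd1 and Sfrp2, which had the lowest unadjusted p among the members, and Sfrp5 and Dkk1, the antagonists tied to fat cells and to myeloma. Each is the 250 bases before the gene start in RefSeq (GRCm38.p6), read 5′ to 3′ on the gene's strand: Fzd1 chr5:4758217-4758466 (minus), Sfrp2 chr3:83766071-83766320 (plus), Sfrp5 chr19:42202253-42202502 (minus) and Dkk1 chr19:30549497-30549746 (minus). Capitals mark CTTTGA or CTTTGT, core letters of the TCF/LEF motif, on either strand.
Fzd1: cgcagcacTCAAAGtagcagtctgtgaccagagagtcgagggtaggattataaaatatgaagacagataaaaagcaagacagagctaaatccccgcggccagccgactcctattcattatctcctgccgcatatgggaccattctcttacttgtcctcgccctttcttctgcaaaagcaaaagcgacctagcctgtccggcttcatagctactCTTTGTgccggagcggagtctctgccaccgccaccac
Sfrp2: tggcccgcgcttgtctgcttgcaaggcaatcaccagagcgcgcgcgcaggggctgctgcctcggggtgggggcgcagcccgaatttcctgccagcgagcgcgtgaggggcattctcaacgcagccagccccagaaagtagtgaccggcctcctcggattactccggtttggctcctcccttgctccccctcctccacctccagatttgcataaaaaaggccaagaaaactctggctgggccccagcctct
Sfrp5: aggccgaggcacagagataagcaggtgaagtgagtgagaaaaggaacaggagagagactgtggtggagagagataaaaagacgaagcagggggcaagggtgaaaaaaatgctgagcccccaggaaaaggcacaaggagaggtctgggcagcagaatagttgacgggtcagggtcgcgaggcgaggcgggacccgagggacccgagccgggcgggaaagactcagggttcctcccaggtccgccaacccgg
Dkk1: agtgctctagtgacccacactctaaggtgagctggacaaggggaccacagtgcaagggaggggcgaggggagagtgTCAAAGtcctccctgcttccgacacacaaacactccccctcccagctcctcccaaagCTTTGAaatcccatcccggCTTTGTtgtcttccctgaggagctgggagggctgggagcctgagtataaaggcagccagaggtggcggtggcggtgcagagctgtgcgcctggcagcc
The Dkk1 window held 3 matches, the Fzd1 window 2, and the Sfrp2 and Sfrp5 windows 0. The most upstream match in Fzd1 began 242 bases before the start and the other 37 bases before it. In Dkk1 the matches began 174, 117 and 98 bases before the start. The promoter table held windows for 30 of the 44 genes, 33 windows in all. Of these 10 held a match (30.3%), against 27.6% of the 32851 windows of the same length in the table. The member windows had a median GC content of 68%, against 52.4% for all windows. A match is a description of these letters and not a binding site.

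Among the ligands, 14 of 19 had a higher mean on exposed arrays and 5 a lower one, with 0 called in either direction. Their median difference was 0.18 on the log2 scale, against -0.0004 for all probe sets and 0.033 for the 11103 dim ones, of which 55.9% were higher. Wnt9a, a ligand known from joint formation, read 4.91, 4.28 and 4.54 on exposed arrays 1 to 3 and 4.20 and 3.95 on control arrays 1 and 2. The groups did not overlap, and exposed array 2 lay close to control array 1. The difference was 0.50 (95% interval -0.01 to 1.02, limma adjusted p 0.93).

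Wnt5a, the main ligand of the Ror receptors, read 4.98, 4.77 and 4.58 on exposed arrays and 4.38 and 4.49 on control arrays. Exposed array 1 was the highest and the groups did not overlap, with a difference of 0.34 (-0.05 to 0.72). Wnt8b read 2.70, 2.72 and 2.86 against 2.56 and 2.17, a difference of 0.39 (-0.002 to 0.78) at a low signal. For Wnt9b the groups overlapped, with 5.39, 4.94 and 5.36 on exposed against 5.11 and 4.61 on control arrays.

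Wnt10b, the ligand best known for holding back fat cell formation, read 4.46, 4.42 and 4.64 on exposed and 4.00 and 4.63 on control arrays. Control array 2 thus read as high as the exposed arrays, and only control array 1 was lower. The mean difference was 0.20 (-0.32 to 0.71). Wnt10a, whose gene lies beside Wnt6, read 4.29, 3.80 and 4.18 against 3.71 and 4.05, and Wnt6 read 3.34, 3.01 and 2.77 against 2.99 and 3.27. Both genes overlapped between the groups, with differences of 0.21 for Wnt10a and -0.09 for Wnt6. These 3 ligands have been linked to the control of precursor fate in fat. All 3 were dim, and their intervals excluded a 2-fold change in the array value, as for 92.9% of all probe sets.

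The ligands with a lower mean differed by little. Wnt2b read 4.29, 4.29 and 3.99 on exposed and 4.16 and 4.61 on control arrays, a difference of -0.20 (-0.66 to 0.26). Wnt4 read 4.07, 4.11 and 3.41 against 3.92 and 3.97, where exposed array 3 alone was low. Wnt3, the ligand with the widest interval (-0.82 to 0.81), read 3.87 and 2.85 on the 2 control arrays, a gap larger than that between any 2 exposed arrays. Wnt16 was the fifth. The ligands not yet given, namely Wnt1, Wnt2, Wnt3a, Wnt5b, Wnt7a, Wnt7b, Wnt8a and Wnt11, had higher means on exposed arrays by 0.10 to 0.30, with intervals that all included 0.

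The higher ligand means varied in size with single arrays, and 12 to 17 of 19 were higher with any 1 array left out. Exposed array 1 was the highest of the 5 for 10 of 19 ligands (52.6%), and control array 1 the lowest for 9 (47.4%). Among dim probe sets overall these shares were 26.7% and 24.1%. As deviations from each gene's own mean, the ligand medians were 0.18 (exposed 1), -0.09 (exposed 2), 0.05 (exposed 3), -0.14 (control 1) and 0.02 (control 2). Dim probe sets as a whole deviated the same way by less, at 0.026 on exposed array 1 and -0.041 on control array 1. Without exposed array 1, 13 of 19 ligands had a higher mean and the median was 0.12. Without control array 1 the count was 12 of 19 and the median 0.038. Over dim probe sets these medians were 0.015 and 0.0077. Without exposed array 2 the ligand count was 16 of 19 and the median 0.24. It was 17 of 19 without exposed array 3 (median 0.15) and 17 of 19 without control array 2 (median 0.20).

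**Figure D3:**
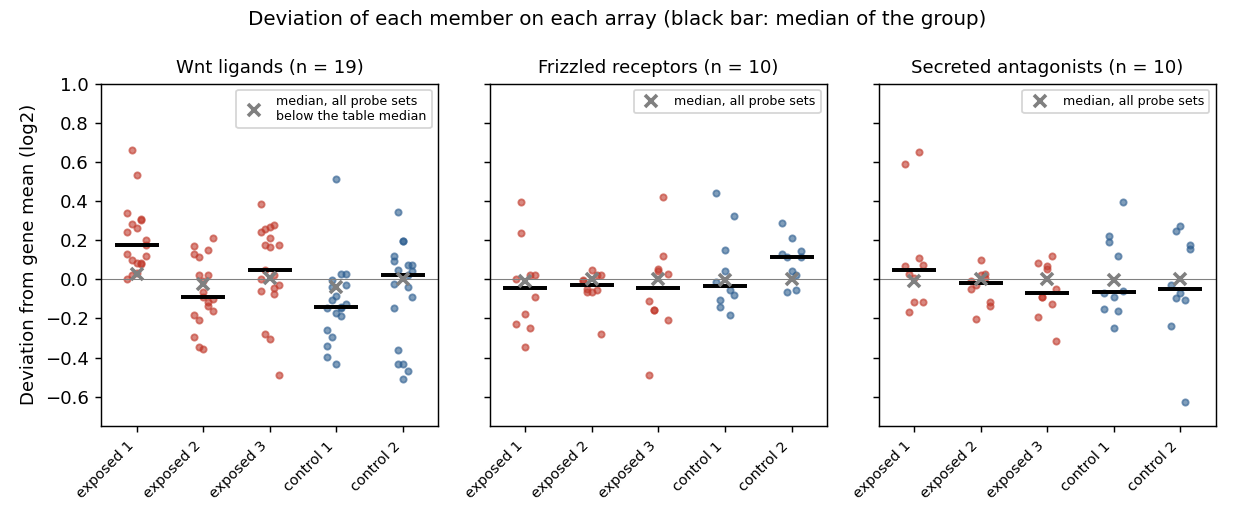
Deviation of each gene's log2 signal from its own mean over the 5 arrays, for ligands, Frizzled receptors and secreted antagonists, with black bars for the median of each group of genes and grey crosses for the median of all probe sets (of the dim ones beside the ligands). Ligand medians run from -0.14 on control array 1 to 0.18 on exposed array 1, with exposed array 2 at -0.09, below control array 2.

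Frizzled receptor genes were split, and the largest differences toward lower signal on exposed arrays were those of Fzd1, Fzd9 and Fzd7. Of the 10 receptors 4 had a higher mean and 6 a lower one, 0 were called, and the median difference was -0.05. Fzd1, a receptor of the beta-catenin branch, read 7.05, 7.26 and 6.79 on exposed arrays and 7.72 and 7.56 on control arrays. Every exposed array was lower than both control arrays. The means were 7.03 ± 0.24 (SD, n = 3) and 7.64 ± 0.11 (SD, n = 2). The difference was -0.61 (-1.03 to -0.18), a control signal 1.52 times the exposed one (limma unadjusted p 0.013, adjusted p 0.93).

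Fzd7, another receptor of the beta-catenin branch, read 6.23, 6.52 and 6.63 on exposed and 6.73 and 6.79 on control arrays, a difference of -0.30 (-0.68 to 0.09). Fzd9 read 4.64, 4.33 and 4.40 against 4.94 and 4.76, a difference of -0.39 (-0.75 to -0.03, limma unadjusted p 0.040, adjusted p 0.93) at a dim signal. In both genes every exposed array was below both control arrays. Leaving out each array in turn, the Fzd1 difference stayed between -0.72 and -0.48, with an unadjusted p under 0.05 in 4 of 5 fits (not without control array 1), and Fzd9 between -0.48 and -0.30, under 0.05 in 1 of 5.

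The other Frizzled genes with clear signal were close between groups. Fzd4, a receptor that also binds the non-Wnt ligand Norrin, read 6.33, 6.44 and 6.44 on exposed and 6.34 and 6.53 on control arrays, with an interval of -0.35 to 0.29. Fzd2 and Fzd5 differed by -0.07 and -0.09. For Fzd2 both control arrays carried the same value, 7.10. Among the dim receptors, Fzd10 read 3.67, 3.21 and 3.11 on exposed and 3.17 and 3.21 on control arrays, with exposed array 1 the highest. Fzd3 read 3.23, 3.43 and 3.90 against 3.43 and 3.43, with exposed array 3 the highest. Fzd8 read 4.12, 4.12 and 4.22 on exposed and 3.92 and 4.12 on control arrays, so that only control array 1 and exposed array 3 stood apart. Fzd8 differed by 0.13 and Fzd6 by 0.03, with intervals that included 0.

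The co-receptors of the beta-catenin branch read at similar signals in both groups. Lrp5 read 8.28, 8.22 and 8.41 on exposed and 8.28 and 8.43 on control arrays, a difference of -0.06 (-0.38 to 0.27). Lrp6 read 7.95, 7.95 and 7.27 against 8.09 and 7.86. Exposed array 3 alone was low, and the difference was -0.25 (-0.84 to 0.34). The receptor tyrosine kinase genes Ror1 and Ror2 were dim, and their arrays varied widely within the exposed group and, for Ror2, within the control group. Ror2 read 4.36, 3.55 and 3.54 on exposed and 3.27 and 4.10 on control arrays, and Ror1 read 4.93, 4.44 and 4.01 against 4.71 and 4.48. Of these 4 genes 1 had a higher and 3 a lower mean, and 0 were called.

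The secreted antagonists held both directions, with Sfrp5 higher and Sfrp2 and Frzb lower on exposed arrays, none of them called. Of 10 antagonists 4 had a higher and 6 a lower mean, with a median difference of -0.02. Sfrp5, a decoy that binds Wnt ligands such as Wnt5a, read 3.55, 2.93 and 3.02 on exposed and 2.74 and 2.27 on control arrays. Every exposed array was above both control arrays, and exposed array 1 and control array 2 were the extremes. The means were 3.17 ± 0.34 (SD, n = 3) and 2.51 ± 0.33 (SD, n = 2), both dim. The difference was 0.66 (0.07 to 1.25, limma unadjusted p 0.033, adjusted p 0.93), and it ranged from 0.43 to 0.89 when 1 array was left out, with an unadjusted p under 0.05 in 2 of 5 fits (those without exposed array 2 or control array 1).

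Sfrp2, a related decoy also made by fibroblasts, was the only antagonist with a signal above the table median. It read 8.31, 8.27 and 8.39 on exposed and 8.70 and 8.72 on control arrays. The gap between the groups was larger than the range within either. The means were 8.32 ± 0.06 (SD, n = 3) and 8.71 ± 0.02 (SD, n = 2), a difference of -0.39 (-0.68 to -0.095) or a control signal 1.31 times the exposed one (limma unadjusted p 0.017, adjusted p 0.93). With each array left out in turn the difference stayed between -0.42 and -0.36, with an unadjusted p under 0.05 in 5 of 5 fits.

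Frzb, also known as a Wnt antagonist of cartilage, read 2.27, 2.27 and 2.08 on exposed and 2.79 and 2.55 on control arrays. The groups did not overlap, at a dim signal, and the difference was -0.46 (-0.81 to -0.11, limma unadjusted p 0.018, adjusted p 0.93). Its unadjusted p was under 0.05 in 4 of 5 fits with an array left out, and not without control array 1. Sfrp1 read 2.79, 2.19 and 2.00 on exposed and 2.05 and 1.96 on control arrays, with exposed array 1 the highest and the groups overlapping, with a mean difference of 0.32 (-0.27 to 0.91). Sfrp4 read 3.12, 3.21 and 3.16 against 3.02 and 3.04, a difference of 0.13 (-0.16 to 0.42). Wif1, which binds Wnt ligands outside the cell, read 4.56, 4.34 and 4.43 against 4.42 and 4.66.

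**Figure D4:**
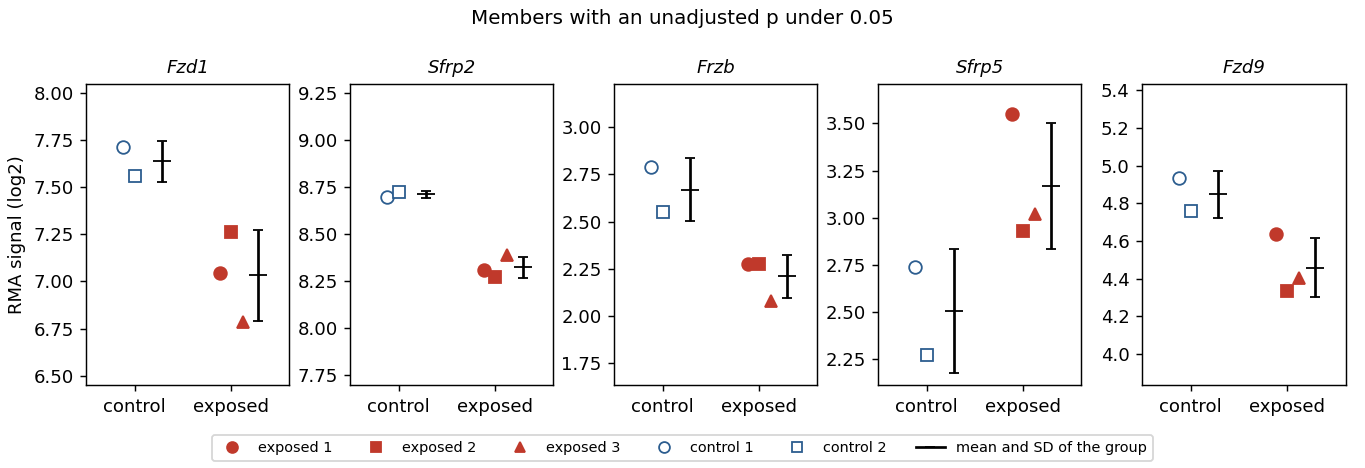
RMA signal (log2) of the 5 members with an unadjusted p under 0.05 on each array (filled red, exposed; open blue, control), with the mean and SD of each group and axes that span 1.6 log2 units without starting at 0. In all 5 genes the groups are apart, and Sfrp2 has the tightest groups, between 8.27 and 8.39 on exposed and 8.70 and 8.72 on control arrays.

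The Dkk genes were dim and close between groups. Dkk1, Dkk2 and Dkk4 act on the Lrp co-receptors, and Dkk3 is the divergent member of the family. Dkk1 read 2.92, 2.80 and 2.94 on exposed and 2.78 and 2.82 on control arrays, with a difference of 0.09 (-0.21 to 0.38). The groups overlapped, and the interval excluded a 2-fold change in the array value. Dkk2, Dkk3 and Dkk4 differed by -0.08, -0.02 and -0.01. Control arrays 1 and 2 of Dkk3 read 2.73 and 3.25, farther apart than its group means.

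Axin2, the feedback target often used as a readout of beta-catenin signalling, read 3.37, 3.26 and 3.98 on exposed and 2.95 and 3.42 on control arrays. Control array 2 lay above exposed arrays 1 and 2, and exposed array 3 was the highest. The difference was 0.35 (-0.29 to 0.99, limma adjusted p 0.93) at a dim signal. It was 0.12 without control array 1, 0.13 without exposed array 3 and 0.58 without control array 2.

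Other genes of the pathway were read from 7 lists written from general knowledge, with 105 genes measured, of which 48 had a higher and 57 a lower mean and 0 were called. At an unadjusted p under 0.05 there were 2 (1.90%), against 3.49% of all probe sets. Of the 105 genes 80 were at or above the table median, where the share over all probe sets was 2.39%. Every exposed array read below both control arrays for 15 of the 105 (14.3%) and above both for 5 (4.76%). Over all probe sets at or above the table median these shares were 11.4% and 7.03%. In the destruction complex and Dishevelled list, 8 of 20 genes were higher and 12 lower (median -0.08). Axin1, the scaffold that gathers beta-catenin with its kinases, read 7.15, 7.41 and 7.29 on exposed and 7.78 and 7.60 on control arrays, all exposed arrays lower, a difference of -0.41 (-0.75 to -0.06, limma unadjusted p 0.028, adjusted p 0.93). Csnk1a1, the priming kinase of that complex, differed by -0.29.

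In the list of Wnt target genes 7 of 17 were higher and 10 lower (median -0.01), with Ascl2, a transcription factor gene of intestinal stem cells, at 3.34, 3.25 and 3.22 on exposed against 2.50 and 2.18 on control arrays. Its difference was 0.93 (0.58 to 1.29, limma unadjusted p 0.00064, adjusted p 0.93) at a dim signal. Nkd1, an inducible inhibitor of Dishevelled, differed by 0.54 (-0.04 to 1.11), with 3.71 on exposed array 1 as the highest value. Of the TCF/LEF factors and cofactors 7 of 16 were higher and 9 lower (median -0.01), and the corepressor gene Tle1 differed by -0.48 and the cofactor gene Pygo1 by -0.39.

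Genes of Wnt processing and secretion were 5 higher and 5 lower (median 0.01). Wls, the carrier that brings Wnt proteins to the cell surface, read 7.33, 7.45 and 6.74 on exposed and 7.82 and 7.55 on control arrays, all exposed arrays lower, with a difference of -0.51 (-1.09 to 0.08), and the retromer gene Vps26a differed by -0.29. R-spondins, Lgr receptors and their turnover enzymes were 5 higher and 3 lower (median 0.0035), with Rspo1 at 0.46 and Lgr5 at 0.24, both with overlapping groups. With 1 array left out Rspo1 ranged from 0.24 (without control array 1) to 0.67. Other extracellular modulators were 7 higher and 10 lower (median -0.01), with Reck at -0.30 and Lrp4 at 0.21. Without control array 2 Reck was at -0.066, and without control array 1 Lrp4 was at 0.0059. Receptors and effectors that do not use beta-catenin, including those of planar polarity, were 10 higher and 12 lower (median -0.06). Ptk7 was at -0.50 and Celsr2 at 0.25. Ptk7 read 3.89 on exposed array 3 and was at -0.17 without it, and Celsr2 was at 0.093 without exposed array 1. None of these genes passed the test.

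Fibroblast markers mostly had lower means on exposed arrays, as Sfrp2, Fzd1 and Fzd7 did. Of 10 preadipocyte and fibroblast markers 9 had a lower mean (median -0.10, 0 called), and 9 of the 10 were at or above the table median. Of all 11103 probe sets at or above that median, 6230 had a lower mean (median difference -0.025). Their average log2 signal was 7.07 on exposed array 1 and 7.11 to 7.14 on the others. Exposed array 1 was the lowest of the 5 for 32.5% of them. Averaged over the 10 markers on each array, log2 signal lay between 8.75 and 8.90 in the exposed group and between 8.93 and 8.96 in the control group. The lowest, 8.75, was also that of exposed array 1. Dlk1, a defining preadipocyte gene, differed by -0.28. Sums of log2 signal over the 10 markers restate these array averages. They ranged from 87.5 to 89.0 in the exposed group and from 89.3 to 89.6 in the control group. The part of these cells in the lower Sfrp2 and Fzd1 values was not tested. Of the 10 adipocyte markers 2 had a higher and 8 a lower mean (median -0.05). Markers of other cells were mostly dim, with 1 of 9 B and plasma cell, 1 of 9 macrophage, 0 of 8 endothelial and 2 of 6 osteoblast markers at or above the table median, and 0 of them were called. Array medians lay between 4.80 and 4.88, and the lower quartile was 3.18 on exposed array 1 against 3.07 to 3.13 on the others.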

How the data were processed

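The 5 columns were the authors' deposited log2 expression values, summarised by RMA with Partek software, per the submitters' processing notes. The software version and the array's annotation build are not given in the sources used here. Genes were named from the platform annotation, and other symbols of listed genes were sought in RefSeq (GRCm38.p6); 16 listed entries had no probe set under their symbol and are not analysed here. All 22206 probe sets were fitted with limma 3.58.1 in R 4.3.3 (lmFit, eBayes, group as the only term, 3 residual degrees of freedom, two-sided), p-values were adjusted by Benjamini-Hochberg over all of them, and a call needed an adjusted p under 0.05. Precision is limited by the 5 arrays. The fit was tested on simulated data. The members and lists were chosen with earlier results of these data known. Array values were given for 28 members: Sfrp5, Dkk1 and 10 genes of known roles, those with an unadjusted p under 0.05, and up to 3 per direction and role (2 for co-receptors) by difference; from each pathway list the 2 largest differences were named. Wnt3 and single values of other members were added after their values were seen. Alternatives were a replicate block, each array left out, a filter on dim probe sets, array centring, array weights, an intensity trend and no moderation; quantile normalization over the 5 arrays was chosen after seeing the data.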

Additional observations from a re-analysis of the deposited data

How the results depend on the processing

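Calls stayed at 0 for members, pathway genes and all probe sets under all 12 alternatives; each member had 1 probe set, so averaging probe sets was not run. Members at an unadjusted p under 0.05 (5) numbered 3 with the replicate block (Fzd1, Sfrp5 and Wnt9a), where 3.55% of all probe sets did so, and 2 of 11 among probe sets at or above the table median (3.26%). Leaving out single arrays gave 3 to 5, against 3.42% to 6.21% of all probe sets. Both the lowest member count, 3 of 44, and the highest share, 6.21%, came without control array 1. There 1 control array was left, assumed to vary like the exposed ones. The block leaves exposed array 3 without a partner. Same-numbered arrays did not deviate together (correlations -0.014 and -0.032), so the numbers were not taken as pairs. No other pairing was fitted. By probe sets over 2-fold apart, exposed array 2 and control array 1 were the closest arrays, at 107. Other pairs had 194 to 425. The reason was not tested. With the dim probe sets left out, 2 of 3 ligands had a higher mean, and the antagonist median, then Sfrp2 alone, was -0.39. With 1 array left out, medians ran from 0.038 to 0.24 for ligands, -0.11 to 0.022 for Frizzled genes and -0.027 to 0.065 for antagonists. The sign held for 24 of 44 members under every alternative run on them. Differences that turned sign with an array left out ranged as follows: Dkk2 -0.22 to 0.0655, Dkk3 -0.283 to 0.239, Dkk4 -0.123 to 0.103, Fzd10 -0.0268 to 0.251, Fzd2 -0.11 to 0.00209, Fzd3 -0.0961 to 0.237, Fzd4 -0.128 to 0.0674, Fzd6 -0.101 to 0.153, Lgr5 -0.00951 to 0.496, Lrp5 -0.134 to 0.0189, Ror1 -0.374 to 0.0895, Ror2 -0.282 to 0.548, Wif1 -0.211 to 0.0247, Wnt10b -0.12 to 0.512, Wnt11 -0.0386 to 0.227, Wnt16 -0.0713 to 0.0384, Wnt2b -0.422 to 0.0295, Wnt3 -0.515 to 0.506, Wnt4 -0.209 to 0.141, Wnt6 -0.242 to 0.0471, Wnt8a -0.0484 to 0.414. With the replicate block, differences of the other sign were Wnt6 0.043, Ror1 0.089, Wnt4 0.14, Wnt16 0.0043, Dkk4 0.052, Fzd3 -0.096. The block gave the same differences as leaving out exposed array 3, so these turns of sign are not a separate result. Quantile normalization turned Fzd4 to 0.0033 and Fzd6 to -0.031. The cause was not tested beyond the array left out.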
